A study of Cucumis melo with 12 samples.

Results

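In leaves of 2 melon (Cucumis melo) varieties taken after 12 h and at 0 h of a 4 °C treatment, 68 genes had opposite changes in messenger RNA level in the varieties. They were 68 of 13186 genes whose level, averaged over all 12 libraries, reached 3 FPKM (fragments scaled by gene length and by the library's total), out of 21691 genes listed. They were selected on the measured changes themselves: on the log2(FPKM + 1) scale, 12 h minus 0 h had to reach 0.6 in size in each variety, with opposite signs. In 57 of them the level was lower at 12 h in variety 162 and higher at 12 h in variety 13-5A. In the other 11 it was higher at 12 h in 162 and lower at 12 h in 13-5A. These are 0.432% and 0.0834% of the 13186 genes, against 28.2%, or 3721 genes, that reached 0.6 in the same direction in both varieties. With median-ratio scaling of the libraries the split between the opposite directions was 40 and 21 genes, in place of 57 and 11.

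The 4 groups, each with 3 libraries, were 162 at 12 h, 162 at 0 h, 13-5A at 12 h and 13-5A at 0 h. The labels call 162 tolerant and 13-5A sensitive to chilling, and name the 4 °C treatment for the 0 h leaves as well as for the 12 h leaves. The temperature before 0 h, the growth stage and the number of plants per library are not stated in them. None of the groups was of unchilled leaves at 12 h, so effects of 4 °C and of elapsed time, including time of day, cannot be told apart. In whole leaves, fewer cells of a type and less RNA per cell cannot be told apart either. Library totals recovered from the FPKM lay between 41299369 and 45355323 reads. The identifiers carry no gene names and 0 of them were found in the RefSeq name table used here, so no role or sequence is given for any gene, and the leaf label was not checked against marker genes.

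Melon is a warm-season crop whose leaves are injured by low temperatures above freezing. In plants, cold changes the transcript levels of many genes within hours, through transcription factors of the CBF family and through pathways independent of them. Growth and photosynthesis genes often fall while protective genes, such as those for compatible solutes and membrane lipid changes, often rise. A gene that goes one way in one variety and the other way in another makes the difference between the varieties itself depend on time, and can exchange their order.

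That exchange was the most frequent pattern among the 57 genes lower at 12 h in 162 and higher in 13-5A. The limits force the difference between the varieties to shift over time, so it is given as a description. At 12 h the median difference, 162 minus 13-5A, was -0.65 on the log2 scale, and at 0 h it was 1.15. In 38 of the 57 the level in 162 was below that in 13-5A at 12 h and above it at 0 h, as in 19.1% of all genes. In 13 it was above that in 13-5A at both times, and in 6 it was below at both times. The changes themselves, which chose the genes and are given as a description only, had a median of -0.86 in 162 (range -3.30 to -0.62) and of 0.86 in 13-5A (range 0.64 to 2.28). The larger of the changes was that in 162 in 27 genes and that in 13-5A in 30. Both changes reached 1, a 2-fold difference on this scale, in 6 genes.

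The 11 genes in the opposite direction also exchanged order, with one exception. At 12 h the median difference, 162 minus 13-5A, was 1.00, and at 0 h it was -0.60. Levels in 162 were above those in 13-5A at 12 h and below them at 0 h in 10 of the 11, as in 8.03% of all genes, and below at both times in 1. This too follows in part from the limits. The changes that chose them had a median of 0.82 in 162 (range 0.64 to 1.72) and of -0.86 in 13-5A (range -1.62 to -0.60). The change in 162 was the larger one in 5 genes and that in 13-5A in 6, and both reached 1 in 2 genes.

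**Figure D1:**
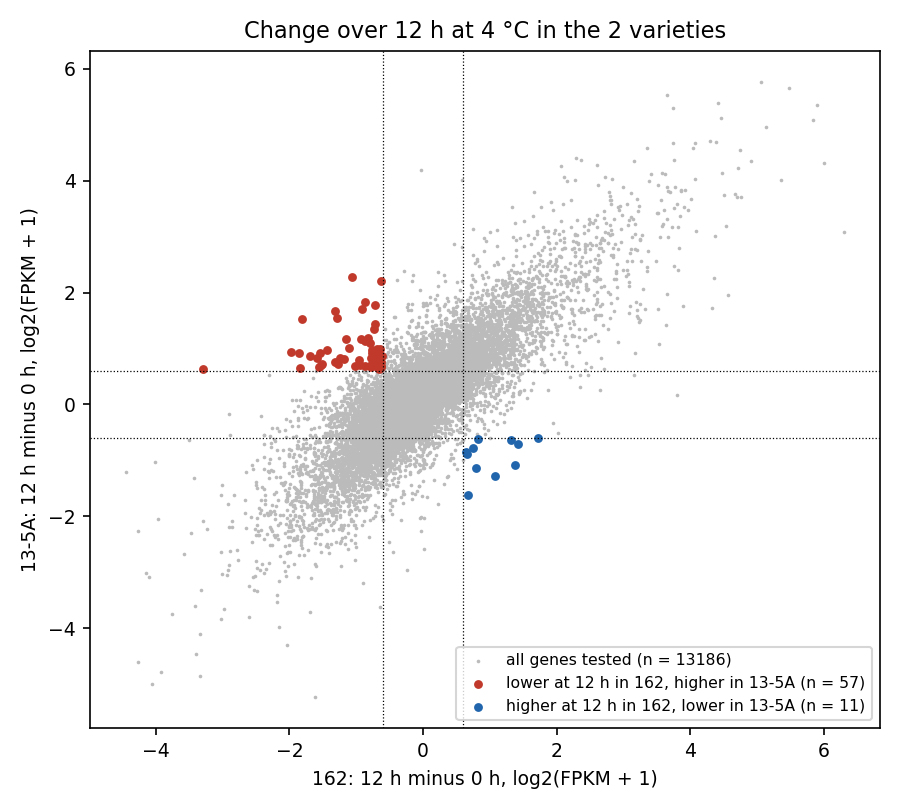
Change from 0 h to 12 h in 162 (x axis) against that in 13-5A (y axis), both in log2(FPKM + 1), for all 13186 genes (grey) and the 68 selected genes (colours), with lines at the limits of 0.6. The 57 genes lie in the upper left corner and the 11 genes in the lower right corner by construction; the smaller of a gene's changes has a median of 0.72 in the 57 and 0.68 in the 11.

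Each change taken alone was common among all genes. A change of at most -0.6 in 162 was found in 23.2% of them and one of at least 0.6 in 13-5A in 25.8%, the pair of conditions that chose the 57 genes. A change of at least 0.6 in 162 was found in 18.4% and one of at most -0.6 in 13-5A in 17.4%, the pair that chose the 11. These shares come from the values used for the choice, and nothing is read from the members' counts against them. Many members lay near the limits: the smaller of a gene's changes was under 0.7 in 23 of the 57 and in 6 of the 11. A further 50 and 12 genes in the same directions had a smaller change between 0.5 and 0.6. The last gene inside the limits among the 57 had changes of -0.62 in 162 and 0.87 in 13-5A, and the first outside had -0.68 and 0.60, the second falling short of the limit before rounding. For the 11, the last inside had 1.72 and -0.60, and the first outside 0.60 and -0.64, with the change in 162 short of the limit before rounding.

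The 57 genes were somewhat more abundant than the average gene and varied more among the libraries of a group. Their mean over 12 libraries had a median of 24.1 FPKM, against 15.5 FPKM for all genes, and ran from 3.40 to 1029 FPKM. The median was 17.6 FPKM over the genes that changed the same way, 21.0 FPKM over those rising in both varieties and 13.7 FPKM over those falling. Adding 1 to the FPKM understates changes of low genes, so the limits themselves favour abundant ones. Of the 57, 6 reached 100 FPKM and 14 stayed under 10 FPKM. The gene length recovered from the FPKM had a median of 1326 bases (165 to 3682), against 1659.5 bases for all genes. The 11 genes had a median level of 12.8 FPKM (5.77 to 160) and a median length of 1099 bases (525 to 2399); 1 of them reached 100 FPKM and 4 stayed under 10 FPKM. The SD within groups, in log2(FPKM + 1), had a median of 0.47 over the 57 and 0.49 over the 11. It was 0.27 over the genes that changed the same way in both varieties and 0.23 over all genes. With 1 library of a group high or low, a gene can pass or miss limits set on group means, so the libraries are described one by one below.

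Of the 57 genes, 32 had all 12 h libraries below all 0 h libraries in 162, or 56.1% of the members against 30.5% of all genes. In 13-5A, 40 of them had all 12 h libraries above all 0 h libraries, or 70.2% against 37.8%. The libraries of the times were free of overlap in both varieties in 24 genes (42.1%, against 1.46% of all genes in these directions), and overlapped in both varieties in 9. Of the 11 genes, 9 had all 12 h libraries above all 0 h libraries in 162, where 23.6% of all genes did. In 13-5A, 8 had all 12 h libraries below all 0 h libraries, where 27.0% of all genes did. In 6 of the 11 there was no overlap in either variety (54.5%, against 0.25% of all genes in these directions), and none overlapped in both. These are the values that chose the genes, so the higher shares follow from the choice. Of the 3721 genes that changed the same way, which were also chosen on their changes, 90.5% were free of overlap in both varieties.

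**Figure D2:**
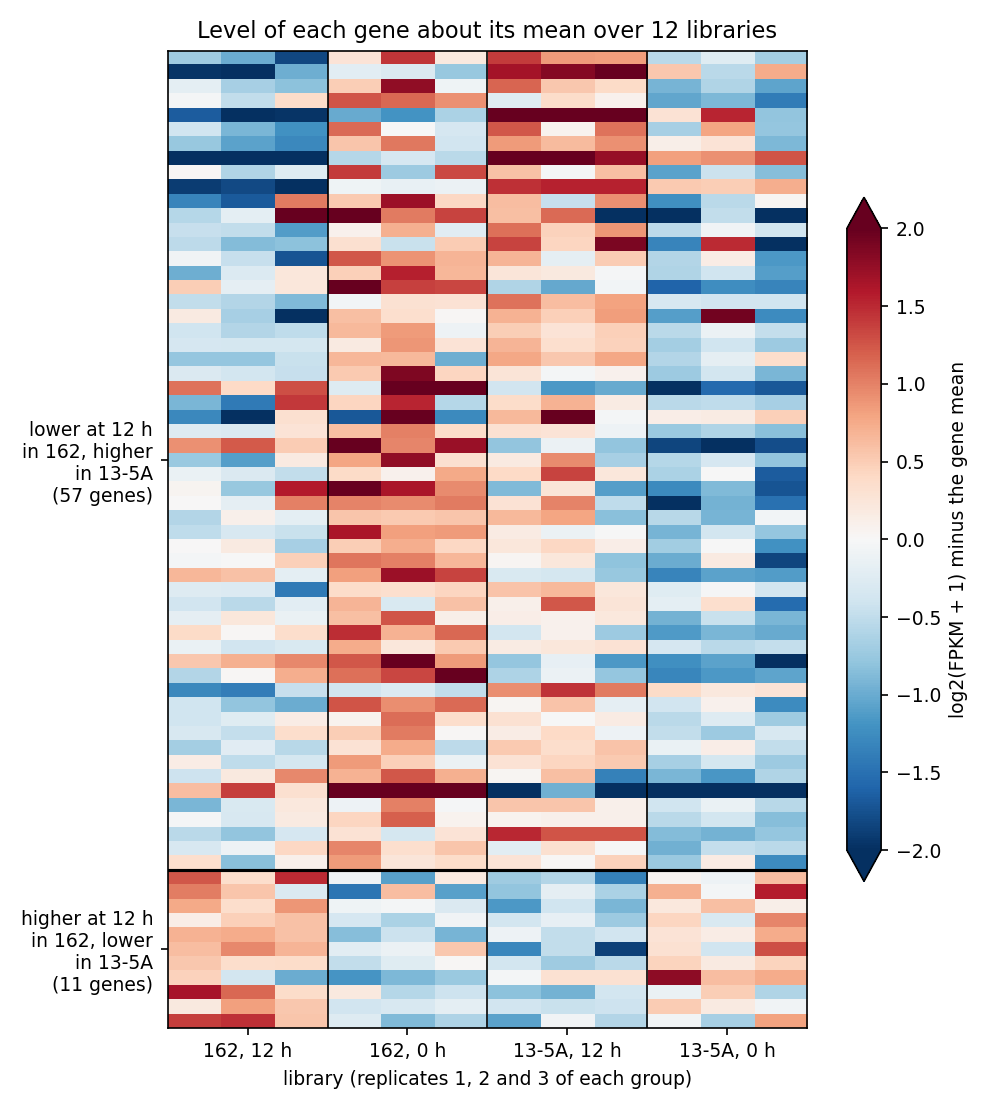
Level of each of the 68 genes (rows) in each of the 12 libraries (columns, 162 at 12 h, 162 at 0 h, 13-5A at 12 h, 13-5A at 0 h), as log2(FPKM + 1) minus the gene's mean over the libraries. The upper block holds the 57 genes and the lower block the 11, and within a group the libraries often differ in shade; the colour scale ends at -2 and 2.

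MELO3C017480.2, 1831 bases long, had the largest smaller change of the 57 and was also the second most abundant of them. In 162 it had 77.9, 63.8 and 35.7 FPKM at 12 h, against 156, 346 and 147 FPKM at 0 h. In 13-5A it had 339, 231 and 231 FPKM at 12 h, against 87.9, 108 and 79.2 FPKM at 0 h. No library at 12 h lay among those at 0 h in either variety, and the highest 0 h library of 162 stood above both others of its group. Group means were 59.1 ± 21.5 FPKM in 162 at 12 h, 216 ± 113 FPKM in 162 at 0 h, 267 ± 62.4 FPKM in 13-5A at 12 h and 91.7 ± 14.7 FPKM in 13-5A at 0 h (SD, n = 3 each). On the log2 scale the change was -1.81 in 162 and 1.52 in 13-5A (SE 0.34 each), and the difference of 162 minus 13-5A was -2.20 at 12 h and 1.12 at 0 h.

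MELO3C016588.2, of 1843 bases, followed it by the same measure but its mean was lower in 162 than in 13-5A at both times. Its levels in 162 were 5.15, 3.81 and 11.1 FPKM at 12 h, against 19.5, 18.4 and 13.1 FPKM at 0 h. In 13-5A they were 74.6, 83.7 and 114 FPKM at 12 h, against 33.4, 15.5 and 39.0 FPKM at 0 h. The times did not overlap in either variety, and at 12 h every library of 13-5A was far above every library of 162. At 0 h the lowest library of 13-5A lay within the range of 162. The change was -1.32 in 162 and 1.67 in 13-5A (SE 0.37 each), and the difference of 162 minus 13-5A was -3.67 at 12 h and -0.67 at 0 h.

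MELO3C017353.2, of 945 bases, was the most abundant of all 68 genes, with a mean of 1029 FPKM. Its levels in 162 were 803, 789 and 1164 FPKM at 12 h, against 1451, 1925 and 1241 FPKM at 0 h. Those in 13-5A were 1183, 1159 and 892 FPKM at 12 h, against 576, 632 and 537 FPKM at 0 h. The times did not overlap in either variety, and at 12 h the ranges of 162 and 13-5A overlapped each other, whereas at 0 h every library of 162 was above every library of 13-5A. Means were 919 ± 213 FPKM in 162 at 12 h, 1539 ± 351 FPKM in 162 at 0 h, 1078 ± 161 FPKM in 13-5A at 12 h and 582 ± 47.4 FPKM in 13-5A at 0 h (SD, n = 3 each). The change was -0.74 in 162 and 0.88 in 13-5A (SE 0.21 each), with a variety difference of -0.24 at 12 h and 1.38 at 0 h.

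Among the 11 genes, MELO3C020143.2 (1270 bases) had the largest smaller change. In 162 its levels were 63.0, 33.4 and 75.2 FPKM at 12 h, against 24.1, 11.6 and 29.5 FPKM at 0 h. In 13-5A they were 15.5, 17.0 and 9.52 FPKM at 12 h, against 27.0, 24.2 and 40.5 FPKM at 0 h. The times did not overlap in either variety, although the lowest 12 h library and the highest 0 h library of 162 were near each other. The change was 1.37 in 162 and -1.07 in 13-5A (SE 0.37 each), and 162 minus 13-5A was 1.91 at 12 h and -0.53 at 0 h.

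MELO3C018065.2 (1099 bases), which followed, was the least abundant of the 11 and rested on scattered libraries. In 162 it had 10.5, 7.29 and 3.62 FPKM at 12 h, against 1.05, 7.71 and 1.65 FPKM at 0 h. Libraries of 13-5A had 2.29, 3.96 and 2.65 FPKM at 12 h, against 8.23, 4.50 and 15.7 FPKM at 0 h. In 162 the times overlapped, and the second 0 h library was level with the second 12 h library. The change was 1.07 in 162 and -1.28 in 13-5A (SE 0.53 each), and the change in 162 was 0.66 without replicate 1 of 162 at 0 h and 1.71 without replicate 2.

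**Figure D3:**
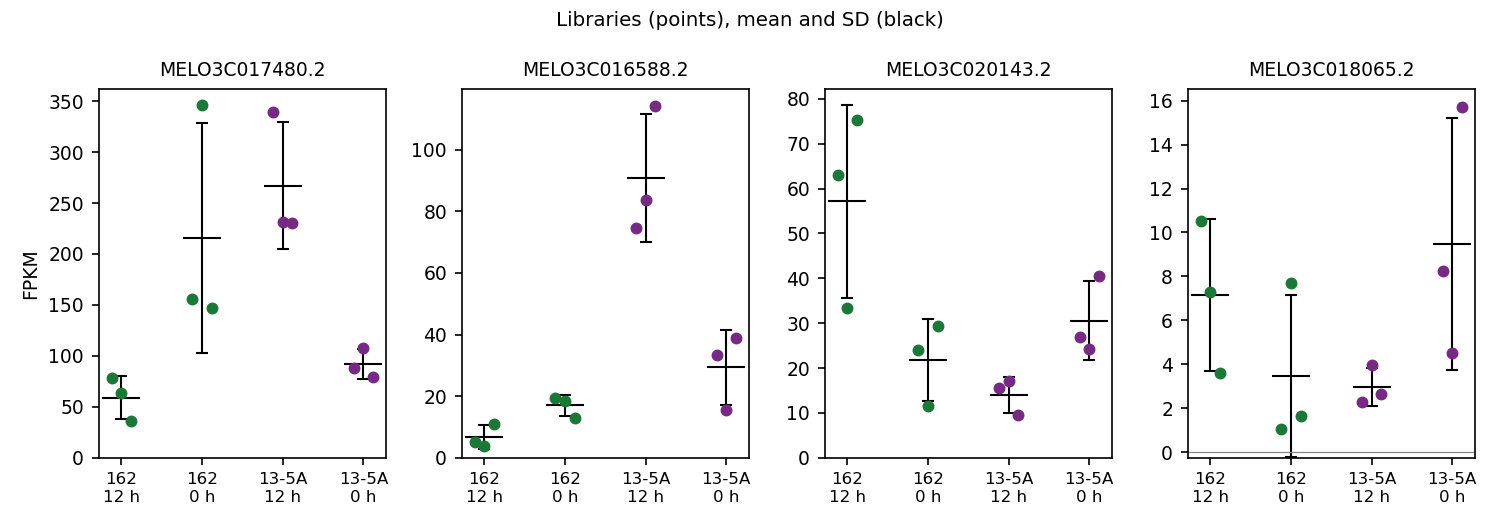
FPKM (y axis, linear, a separate scale per gene) of the genes with the largest smaller changes in each direction, by library (points), with the group mean and SD (black, n = 3). MELO3C017480.2 and MELO3C016588.2 are lower at 12 h in 162 and higher in 13-5A, MELO3C020143.2 and MELO3C018065.2 the other way round, and in the last the libraries of the times overlap in 162.

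The most abundant of the 11 genes changed most in 1 variety. MELO3C021688.2 (1486 bases, mean 160 FPKM) had 431, 305 and 176 FPKM at 12 h in 162, against 156, 91.5 and 103 FPKM at 0 h in 162. Libraries of 13-5A had 77.1, 70.8 and 106 FPKM at 12 h, against 125, 192 and 89.7 FPKM at 0 h. The times were apart in 162 and overlapped in 13-5A, where the change of -0.63 (SE 0.35) became -0.34 without replicate 2 at 0 h. Its change in 162 was 1.32 (SE 0.35).

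MELO3C019585.2 (1882 bases, mean 81.3 FPKM) was the next most abundant of the 11. It had 83.4, 107 and 115 FPKM at 12 h in 162, against 59.9, 48.8 and 72.7 FPKM at 0 h in 162. In leaves of 13-5A the levels were 59.2, 68.2 and 45.6 FPKM at 12 h, against 103, 61.4 and 151 FPKM at 0 h. Here too the times were apart in 162 and overlapped in 13-5A, with changes of 0.75 in 162 and -0.78 in 13-5A (SE 0.29 each). Without replicate 3 of 13-5A at 0 h the change in 13-5A was -0.47.

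Whether the genes also differed between the varieties as a whole, over both times, is a question the limits did not address directly. In this balanced design the variety difference averaged over times is uncorrelated with the change over time within each variety. The choice still bears on spread: the SD within groups had a median of 0.47 over the 57, against 0.23 over all genes. More spread can carry a gene past a fold limit, and the comparison with all genes below is not matched for it. It was tested with limma on log2(FPKM + 1) over all 13186 genes, and a gene was called at a Benjamini-Hochberg adjusted p under 0.05 and a difference of at least 1 in size. Separate plants are not named in the labels, and the p-values therefore speak only of variation among these samples, and that may be technical. Of the 57 genes, 14 were higher in 162 (24.6%, against 7.51% of all genes) and 5 were lower in 162 (8.77%, against 2.15% of all genes). The other 38 were not called. Without the fold minimum 20 of the 57 were higher in 162, where 33.3% of all genes were, and 8 were lower, where 14.1% were. These counts are near the shares of all genes, so the higher shares appeared only with the fold minimum. Of the 14, 5 had a mean under 3 FPKM in 13-5A and entered the tested genes only through 162, which favours their call; the same holds for 201 of the 990 genes called higher in all. The median averaged difference was 0.32 over the 57 (range -2.97 to 4.85), against 0.15 over all genes. With median-ratio scaling of the libraries 11 of the 57 were called higher and 5 lower, and among all genes the calls became 630 higher and 479 lower in 162, against 990 and 283 with the FPKM as deposited. Of the 14 genes called higher, 13 were above 13-5A in mean at both times, and all 5 called lower were below it at both times. The fold limit nearly fixes this: among all genes it held for 988 of the 990 called higher and 281 of the 283 called lower.

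Of the 11 genes, 0 were called higher in 162 (against 7.51% of all genes) and 1 was called lower (9.09%, against 2.15% of all genes). With only 11 genes, nothing is read from these counts against those shares. The median averaged difference was 0.21 (range -1.24 to 0.83). With the fold minimum, limma voom on the recovered reads also called 0 higher (against 9.29% of all genes). Without it, limma gave 4 of the 11 as higher in 162 (36.4%, against 33.3% of all genes) and 1 as lower (9.09%, against 14.1% of all genes), shares near those of all genes. Limma voom without it likewise gave 4 as higher (36.4%, against 33.0% of all genes). At an unadjusted p under 0.05, 4 were higher as well, which was not counted over all genes. The called gene was MELO3C035578.2, the exception to the exchange of order, named here after its values were seen. It had 14.9, 7.90 and 4.83 FPKM at 12 h in 162, against 4.11, 5.17 and 5.90 FPKM at 0 h in 162. The 13-5A libraries had 10.2, 13.2 and 13.3 FPKM at 12 h, against 38.8, 16.6 and 18.2 FPKM at 0 h. Its libraries overlapped between times in 162, and its averaged difference was -1.24 (SE 0.25, limma adjusted p = 0.00168).

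**Figure D4:**
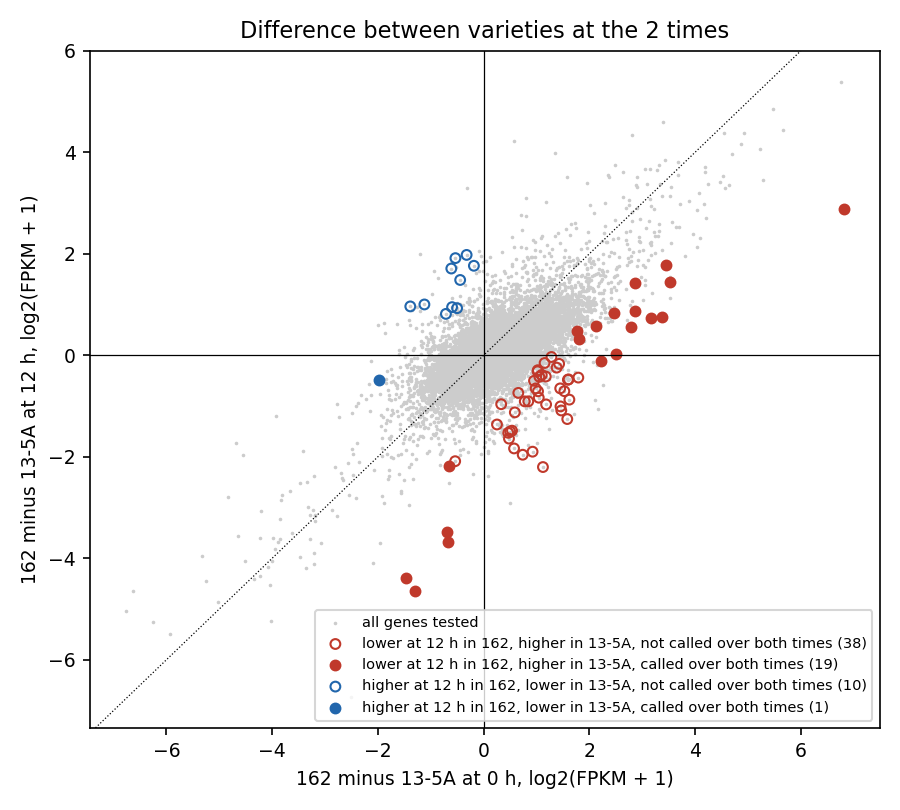
Difference between the varieties, 162 minus 13-5A, at 0 h (x axis) and at 12 h (y axis), in log2(FPKM + 1), for all genes tested (grey) and the 68 genes (colours). Filled symbols are called over both times, 19 of the 57 and 1 of the 11. Of all genes, 7.51% were called higher in 162 and 2.15% lower. Right of 0 and below 0 lie 38 of the 57, and left of 0 and above 0 lie 10 of the 11.

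MELO3C012505.2, of 237 bases, had the largest averaged difference of the genes called higher in 162 and had few reads in 13-5A. In 162 it had 9.25, 16.4 and 7.37 FPKM at 12 h, against 183, 70.7 and 107 FPKM at 0 h. In 13-5A it had 0.1, 2.42 and 0 FPKM at 12 h, and it was listed at 0 in all 3 libraries at 0 h. These are 335 reads at 12 h and 3741 at 0 h in the 3 libraries of 162, and 27 reads at 12 h and 0 at 0 h in those of 13-5A, where all but a few came from 1 library. Its change was -3.30 in 162 and 0.64 in 13-5A (SE 0.45 each), and without replicate 2 of 13-5A at 12 h the change in 13-5A was 0.07. The averaged difference was 4.85 (SE 0.32, limma adjusted p = 4.69e-07). With means of 0.842 FPKM at 12 h and 0 FPKM at 0 h in 13-5A, the gene entered the tested genes only through 162. This favours its call. Whether reads of 1 variety failed to align to this gene was not tested.

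MELO3C009404.2 (1125 bases) was the other gene named among those called higher in 162. It had 13.0, 7.68 and 15.0 FPKM at 12 h in 162, against 4.51, 44.5 and 36.9 FPKM at 0 h in 162. Levels in 13-5A were 4.03, 1.96 and 2.25 FPKM at 12 h, against 0.568, 1.25 and 1.04 FPKM at 0 h. The times were apart in 13-5A and overlapped in 162, where 1 library at 0 h was below all those at 12 h. The change in 162 was -0.76 (SE 0.62), and it was -0.21 without replicate 2 at 0 h, -0.34 without replicate 3 and -1.73 without replicate 1. The averaged difference was 2.62 (SE 0.44, limma adjusted p = 0.000467). With means of 2.75 FPKM at 12 h and 0.95 FPKM at 0 h in 13-5A, this gene too entered the tested genes only through 162. That favours its call.

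The genes called lower in 162 with the largest differences were unlike in scatter. MELO3C032763.2, of 360 bases and with an SD within groups of 0.68 in log2(FPKM + 1), had 7.58, 4.04 and 5.93 FPKM at 12 h in 162, against 12.5, 10.8 and 16.4 FPKM at 0 h in 162. Levels in 13-5A were 195, 109 and 214 FPKM at 12 h, against 32.0, 77.0 and 14.7 FPKM at 0 h. The times did not overlap in either variety, with changes of -1.07 in 162 and 2.28 in 13-5A (SE 0.46 each); no other of the 57 had a larger change in 13-5A. The averaged difference was -2.97 (SE 0.33, limma adjusted p = 2.78e-05).

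MELO3C012825.2 (528 bases) had a similar averaged difference, with closer replicates and with its larger change in 162. In 162 it had 9.36, 7.75 and 5.18 FPKM at 12 h, against 29.4, 34.8 and 30.2 FPKM at 0 h. The 13-5A libraries had 183, 188 and 150 FPKM at 12 h, against 78.6, 84.6 and 107 FPKM at 0 h. No libraries overlapped between any of the 4 groups. The change was -1.98 in 162 and 0.95 in 13-5A (SE 0.19 each), and the averaged difference was -2.94 (SE 0.14, limma adjusted p = 1.61e-08).

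Of the genes described before, MELO3C016588.2 was called lower in 162 (averaged difference -2.17, SE 0.26, limma adjusted p = 4.88e-05). MELO3C017480.2 was not called (-0.54, SE 0.24, limma adjusted p = 0.0868). MELO3C017353.2, MELO3C020143.2 and MELO3C021688.2 passed the p limit but not the fold limit, with averaged differences of 0.57, 0.69 and 0.79 and limma adjusted p of 0.00878, 0.0452 and 0.0192. MELO3C018065.2 and MELO3C019585.2 were not called, with averaged differences of -0.21 and 0.05 and limma adjusted p of 0.669 and 0.854; the difference of MELO3C019585.2 was -0.16 with median-ratio scaling. Failing the threshold does not show that the varieties had equal levels.

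Because the choice used all libraries, the opposite directions were also described in libraries left out of a repeated choice. The same limits were applied to 2 of the 3 replicate numbers of every group, and the signs were then counted in the 4 libraries left out, for each of the 3 numbers. With replicate 1 left out, 60 genes were chosen as lower at 12 h in 162 and higher in 13-5A, and 41 of them (68.3%) had both signs again in the libraries left out, where 16.6% of all genes had these signs. With replicate 2 left out, 40 of 58 (69.0%) did, against 22.9% of all genes. With replicate 3 left out, 48 of 112 (42.9%) did, against 16.7%. Over the 3 rounds this was 129 of 230 choices, or 56.1%. Under the alternative settings tried for this count it was 47.3% to 50.7%. A gene can be chosen in more than 1 round, so choices are not separate genes. Each round reads 1 library per group, and the shares of all genes are not matched for spread. The replicates may be technical, so these counts in both directions are a description and were not tested.

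Median sizes in the libraries left out were smaller than in those used to choose for some replicate numbers and about as large for others. For the genes chosen as lower in 162, the median change in 162 was -0.60 in replicate 1, against -0.87 in the libraries used to choose. It was -0.96 in replicate 2, against -0.92, and -0.07 in replicate 3, against -0.90. In 13-5A the medians were 0.85, 0.40 and 0.53 in the libraries left out, against 0.84, 1.02 and 0.89 in those used to choose. Both changes again passed 0.6 in 22, 10 and 14 of the genes.

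In the opposite direction, 8 of 12 (66.7%), 9 of 24 (37.5%) and 10 of 21 (47.6%) genes kept both signs with replicates 1, 2 and 3 left out. Of all genes, 7.75%, 6.76% and 8.98% had these signs in the same libraries. Together this was 27 of 57 choices, or 47.4%. The medians left out were 0.65, 0.21 and 0.39 in 162 and -0.77, -0.63 and -0.37 in 13-5A. In the libraries used to choose they were 0.76, 0.93 and 0.85 in 162 and -0.96, -0.95 and -0.82 in 13-5A. Both changes again passed 0.6 in 3, 2 and 3 of these genes. Genes chosen as changing the same way in both varieties kept their signs in 97.3%, 92.6% and 95.2% of cases. For these signs no share of all genes was counted, and the sets are not matched for size of change. On all libraries, genes rising in both had median changes of 1.17 in 162 and 1.36 in 13-5A. Those falling in both had -1.13 and -1.15. Of the 57 genes 18, and of the 11 genes 3, were chosen in every one of the 12 choices that leave out 1 library.

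One library stood apart for the 68 genes more than for genes at large. In replicate 2 of 13-5A at 0 h, the 57 genes lay on average 0.32 above their group mean on the log2 scale, and 43 of the 57 were above it. The 11 genes lay 0.30 below theirs (mean deviation -0.30), with 2 of 11 above, while the mean deviation over all genes was -0.02. In both sets this is towards the level of 13-5A at 12 h. Without that library 77 and 12 genes met the limits, in place of 57 and 11. Other libraries deviated by 0.21 or less in size over the 57 and by 0.24 or less over the 11. Such a rise in the count was not particular to that library. Without replicate 3 of 162 at 12 h, 77 genes met the limits in place of the 57 and 18 in place of the 11. In place of the 57 there were also 76 without replicate 1 of 162 at 0 h and 74 without replicate 3 of 13-5A at 12 h.

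Within groups, levels of the 57 genes varied together only weakly. Deviations from the group means, over the 12 libraries with 8 residual degrees of freedom, had a median correlation of 0.11 over 1596 pairs of the 57, of which 60.3% were positive. Over the 55 pairs of the 11 genes the median was 0.02, and between the sets it was -0.09 over 627 pairs. Over all genes the median was 0.02. The pairs share libraries and their totals, so these values are a description.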

How the data were processed

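Total RNA of melon leaves was sequenced as paired-end reads, per the labels' protocols. The authors deposited FPKM values; aligner, counting program, build, annotation and strand setting were not given in the sources used here, and reads of near-identical or overlapping genes may be shared between them. Columns were assigned by the sample descriptions, and 0 columns of per-sample values were left unused. None of the identifiers matched the RefSeq name table (0 matched).

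The members, limits and tests were chosen with earlier results of these data known. Whole reads, gene lengths and library totals were recovered from the FPKM: 100% of the values of the 13186 genes came out whole within 0.001 reads. At the median length of 1659.5 bases, 1 FPKM is about 73.3 reads; 1 read may stand for a pair. Of the 57 genes, 7 had fewer than 30 reads in at least 1 library, and of the 11, 0 had.

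Values were taken as log2(FPKM + 1), which understates changes of low genes. limma 3.58.1 (R 4.3.3), fitted with an intensity trend and 4 group terms (8 residual degrees of freedom), gave standard errors and the averaged variety difference; it was tested on simulated data. Other steps used Python 3.11.15, numpy 2.4.6, pandas 2.3.3 and matplotlib 3.10.9. Changes over time, their difference and the variety differences at a single time follow from the choice and were not tested. Named by rule were at most 2 genes per direction with the largest smaller change, at most 2 per direction with the highest mean FPKM, and the 2 called higher and 2 called lower in 162 with the largest averaged difference. Recovered reads of any 2 libraries of a group differed by a chi-square of 42.8 to 307 per gene, far above sampling noise, and each library counts as 1 replicate.

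Alternatives were a pseudocount of 0.1, minimum means of 1 and 10 FPKM or none, equal totals (TPM), median-ratio scaling, limits of 0.5 and 1, limma without the trend, no fold minimum, a replicate block, limma voom on recovered reads, and each library left out. The genes changing the same way and a run of 4 identifiers were added after seeing the data.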

Additional observations from a re-analysis of the deposited data

Results flagged for a closer look

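For 6 of the genes named by rule, every 12 h library lay on one side of all 0 h libraries in 162 and on the other side in 13-5A. The genes were chosen for opposite changes, so this was not tested and the values are a description. The change in 162 minus the change in 13-5A, in log2(FPKM + 1), was -3.35 in MELO3C032763.2, -3.33 in MELO3C017480.2, -3.00 in MELO3C016588.2, -2.92 in MELO3C012825.2 and -1.62 in MELO3C017353.2, all of them lower at 12 h in 162. It was 2.45 in MELO3C020143.2, which was higher at 12 h in 162. In all, 30 of the 68 genes had no overlap between times in either variety, with opposite directions (44.1%, against 1.71% of all genes); this is read from the values that chose them.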

How the results depend on the processing

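How many genes met the limits depended on the settings. In place of 57 genes, 87 met them with a pseudocount of 0.1, 107 with a limit of 0.5 and 6 with a limit of 1. In place of 11 genes, 21 met them with median-ratio scaling, 7 with a minimum mean of 10 FPKM, 23 with a limit of 0.5 and 2 with a limit of 1. Median-ratio scaling left 40 of the 57 genes, so the split between the directions became 40 and 21; it moved the median change of all genes in 162 to 0.01, against -0.09 with the FPKM as deposited, and the median variety difference to -0.04, against 0.15. Leaving out 1 library at a time gave 45 to 77 genes in place of 57 and 10 to 18 in place of 11. Called over both times were then 16 to 20 of the 57 and 1 to 2 of the 11, the 2 arising without replicate 2 of 13-5A at 12 h and without replicate 3 of 13-5A at 0 h. Of all genes, 6.92% to 8.27% were then called higher in 162 and 2.05% to 2.37% lower. With no fold minimum 5 of the 11 were called, a share near that of all genes (33.3% higher and 14.1% lower in 162). With a limit of 1 for choosing, 30% of the genes higher at 12 h in 162 kept both signs in the replicate left out. The cause of these shifts was not tested, beyond the altered limits and minimum means themselves. Among counts and shares alone, 12 of 90 alternative values moved. Many values of named genes could not move, since a change in 1 variety does not use the libraries of the other. Of all 607 alternative values, these included, 589 moved little by the criteria used and 14 moved. The sign changed in 4, all of them the averaged variety difference of MELO3C019585.2, which was not called under any: it was 0.05 on all libraries, -0.16 with median-ratio scaling, and -0.12 to 0.20 with 1 library left out. Deviations of same-numbered libraries correlated at -0.34 to 0.34 (18 pairs, 2 over 0.1). With 3 libraries a group this cannot settle whether the numbers pair the samples or mark a batch. With the replicate block 19 of the 57 and 1 of the 11 were called, as without it. Precision rests on 3 libraries a group, and for the 7 genes with fewer than 30 reads in a library also on counting.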

Other observations

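Of the 57 genes lower at 12 h in 162 and higher in 13-5A, 4 had neighbouring identifiers: MELO3C014465.2, MELO3C014466.2, MELO3C014468.2 and MELO3C014469.2. They were picked out after their values were seen. Their lengths were 1322, 1242, 1209 and 1142 bases and their mean levels 9.14, 21.8, 16.2 and 28.7 FPKM. The changes in 162 were -0.77, -1.84, -0.72 and -0.69, and those in 13-5A were 0.70, 0.66, 1.43 and 0.99. Deviations from the group means correlated at 0.72 to 0.94 between the 4 genes over 12 libraries, against a median of 0.11 among the 57. Of the 4, MELO3C014466.2 had the largest change in 162, with 13.8, 10.3 and 8.82 FPKM at 12 h, against 45.8, 36.3 and 41.8 FPKM at 0 h. In 13-5A it had 19.0, 28.2 and 16.3 FPKM at 12 h, against 13.9, 19.9 and 7.23 FPKM at 0 h, which overlap. The identifiers between and before them were not members: MELO3C014467.2 averaged 0.198 FPKM, and MELO3C014464.2 changed by -0.61 in 162 and by -0.11 in 13-5A. Genome positions were not used here, and whether the 4 genes share reads as near-identical copies was not tested.

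MELO3C000655.2, of 983 bases, had the least spread within groups of the 68 genes, 0.127 in log2(FPKM + 1), and was also picked out after its values were seen. In 162 it had 6.53, 7.04 and 5.07 FPKM at 12 h, against 25.6, 24.3 and 25.0 FPKM at 0 h. In 13-5A it had 76.5, 80.9 and 80.8 FPKM at 12 h, against 39.7, 38.7 and 45.7 FPKM at 0 h. None of the 4 groups overlapped another. The changes were -1.86 in 162 and 0.93 in 13-5A (SE 0.13 each), and the difference averaged over both times was -2.09 (SE 0.09, limma adjusted p = 8.45e-09). The low spread for which the gene was picked also makes the SE and the p-value small.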
